A study of Oryctolagus cuniculus with 34 samples.

Results

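The genes described here are 10 endothelial and angiogenesis genes of rabbit muscle: VEGFA, KDR, FLT1, ANGPT1, ANGPT2, TEK, TIE1, PECAM1, CDH5 and VWF. They were taken by name from the count tables, all 10 were present, and they are 10 of the 18176 genes counted. All 10 passed the filter on low counts in both terms. The study sequenced total RNA of rabbit (Oryctolagus cuniculus) supraspinatus, one of the rotator cuff muscles, with 1 library per sample. At the long term there were 5 libraries of muscle given a repair together with a gel made of tissue-derived extracellular matrix, 5 given repair only and 10 uninjured. At the short term there were 5 gel libraries, 5 repair-only libraries and 4 with injury only. Uninjured muscle was thus measured at the long term only, and injury-only muscle at the short term only. The labels give neither the length of a term, nor the strain, age or sex of the animals, nor the kind of injury and repair in each library. The labels do not say whether each library stands for an animal of its own. Codes in the file names, read here as animal codes, differ between all libraries of a group. Each uninjured library shares its code with 1 operated library, and the main tests against uninjured muscle did not use this pairing. The p-values measure the spread between libraries, some of which may be technical.

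Blood vessels are lined by endothelial cells, which grow new branches mainly in answer to vascular endothelial growth factor A (VEGFA). In skeletal muscle VEGFA is made by the fibres among other cells and acts on endothelium through KDR (VEGF receptor 2), the main signalling receptor, while FLT1 (VEGF receptor 1) binds VEGFA tightly, signals weakly and, as a soluble form, serves as a decoy. A parallel system sets vessel stability: ANGPT1, made largely by mural cells, activates the receptor TEK (TIE2), ANGPT2, released by endothelium, opposes or replaces it depending on context, and TIE1 modulates TEK. PECAM1 and CDH5 (VE-cadherin) hold endothelial cells together at their junctions, and VWF (von Willebrand factor) is the clotting protein that endothelium stores and secretes.

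Short-term libraries held 26904529 to 32313295 counted reads and long-term libraries 12582302 to 15019158. Term, depth and any other difference between the 2 sets of libraries cannot be told apart. Levels are CPM, counts scaled to a common library size, after TMM scaling (trimmed mean of M values) over all 34 libraries. They are not divided by gene length, so a level is compared between groups and never between genes. The 19 other endothelial identity genes in the files summed to 324 to 777 CPM, so endothelial RNA was present in every library. Injury-only replicate 3 of the short term stood apart: this sum was 777 CPM, against 346 to 385 CPM in the other injury libraries, and its 9 muscle fibre markers summed to 67100 CPM, against 203100 to 307000 CPM. Repair replicate 4 of the short term lay with the injury libraries (fibre markers 257100 CPM, 6 fibroblast markers 694 CPM). Gel replicate 1 of the long term was the lowest or highest library of its group for 9 of the 10 genes. Results that rest on these 3 libraries are given with and without them.

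Of the 10 genes, 7 passed the test across all genes between the terms in at least 1 treatment, and 0 passed it between treatments within a term. In repair muscle 6 of 10 passed edgeR's quasi-likelihood test between long and short term at a Benjamini-Hochberg adjusted p under 0.05, beside 46.2% of all genes tested, and in gel muscle 5 of 10 did, beside 48.3%. By direction 5 were higher and 1 lower in repair muscle, beside 18.2% and 27.9% of all genes, and 4 were higher and 1 lower in gel muscle, beside 21.8% and 26.5%. In either direction both shares were near their background. By direction, the shares called higher lay above those of all genes and the shares called lower lay below them. With 10 genes these shares are coarse, and the departures were not tested. VEGFA, FLT1, ANGPT1 and TEK were higher at the long term in both repair and gel muscle. CDH5 was higher and VWF lower at the long term in repair muscle, and ANGPT2 was lower at the long term in gel muscle. KDR, TIE1 and PECAM1 passed in neither. Without the 3 libraries that stood apart the counts were 7 and 5, with log2 differences in repair muscle of 1.78 for VEGFA, 1.12 for FLT1, 2.07 for ANGPT1 and 0.92 for TEK, and in gel muscle of 1.01, 1.68, 1.30 and 1.18 for the same genes. The share of all genes called without those libraries is not given here.

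Within a term, edgeR called 0 of 10 genes in each of the 6 comparisons between treatments. The share of all genes called was 0% for gel against repair, repair against injury and gel against injury at the short term, 0% for gel against repair at the long term, 1.01% for repair against uninjured and 0.00862% for gel against uninjured. At an unadjusted p under 0.05 the counts were 1, 0 and 2 of 10 for gel against repair, repair against injury and gel against injury at the short term, beside 10.4%, 14.6% and 18.4% of all genes. They were 2, 2 and 3 of 10 for gel against repair, repair against uninjured and gel against uninjured at the long term, beside 14.2%, 11.7% and 13.8%. DESeq2 also called 0 of 10 in all 6. Limma with library quality weights called 2 each in repair against injury and gel against injury at the short term, given with those genes. The share of all genes that limma called is not given here, so these counts have no background beside them.

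**Figure D1:**
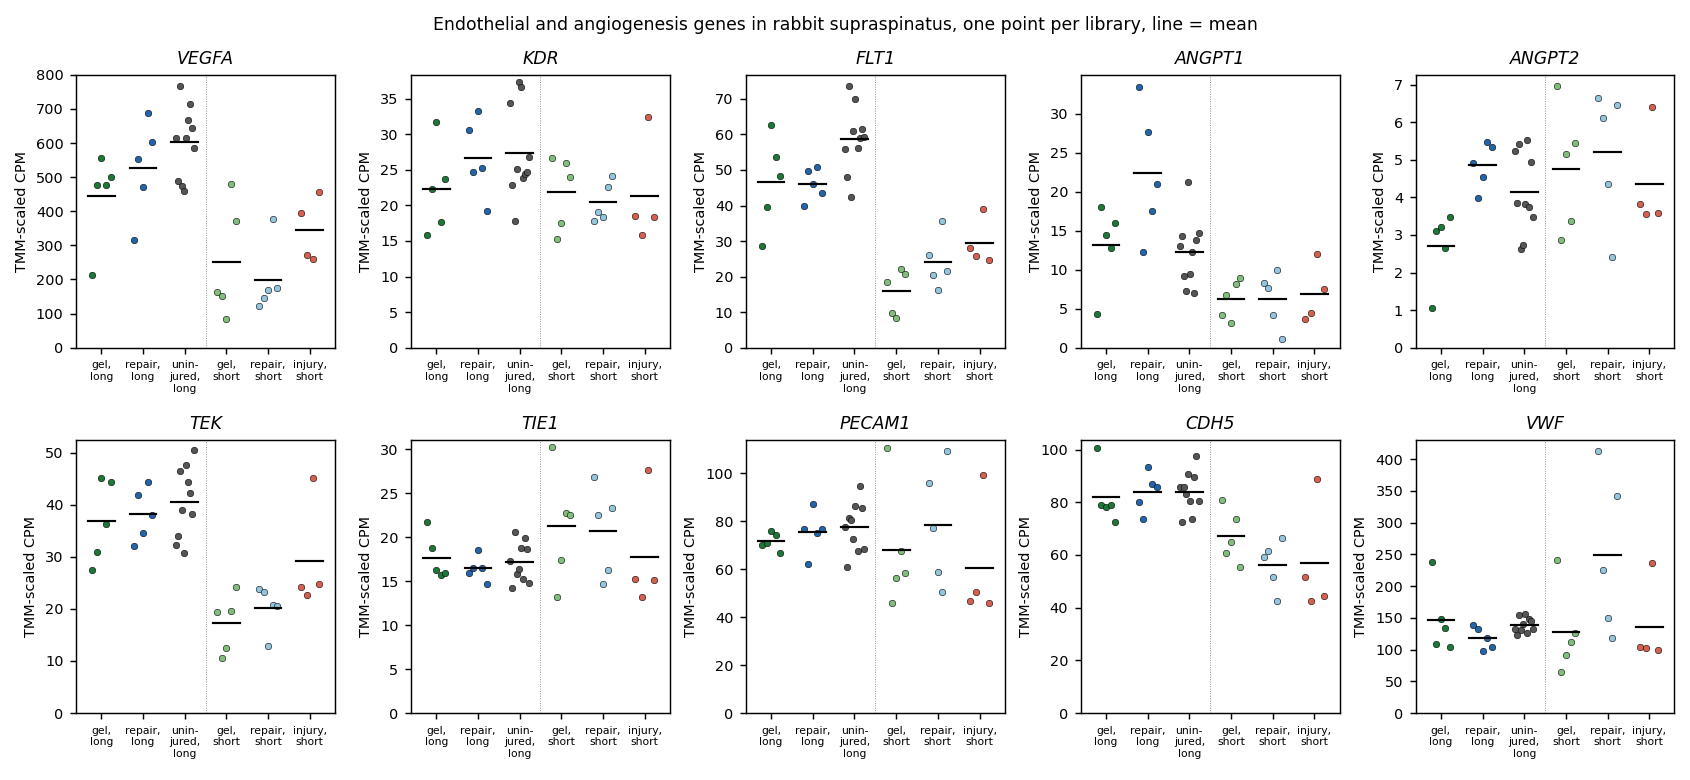
TMM-scaled CPM (y axis, from 0) of each gene in each library, by treatment and term (x axis), with 1 point per library and a line at the group mean (n = 5 for gel and repair at each term, 10 uninjured and 4 injury only). FLT1 and TEK are higher in every long-term gel and repair library than in any short-term gel library, VWF and VEGFA scatter widely at the short term, and the high injury-only point of most panels is replicate 3.

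VEGFA, the ligand that drives endothelial sprouting, rose 2.66-fold between the terms in repair muscle and 1.78-fold in gel muscle. The long-term repair libraries held 316, 552, 470.3, 688 and 602 CPM, against 121, 147, 170.1, 377 and 174 CPM in short-term repair libraries. Of the long-term repair libraries 4 lay above every short-term repair library, and replicate 1 lay below short-term repair replicate 4 (log2 difference 1.41 ± 0.35 SE, edgeR adjusted p = 0.0015). In gel muscle the long-term libraries held 212, 478, 555, 476 and 500.2 CPM, against 162, 152, 84.5, 479 and 371 CPM at the short term. Replicates 4 and 5 of the short-term gel group reached into the long-term range and long-term replicate 1 lay below both (log2 difference 0.83 ± 0.34 SE, edgeR adjusted p = 0.0439). Leaving out 1 gel library at a time gave log2 differences of 0.61 to 1.21, and 7 of the 10 such fits did not pass: those without short-term gel replicates 1, 2 or 3 or any of long-term gel replicates 2 to 5. Gel against repair differed between the terms by -0.58 ± 0.48 SE on the log2 scale (edgeR adjusted p = 0.644).

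Among treatments at 1 term, VEGFA was most spread at the short term. The 4 injury-only libraries held 394, 273, 259.7 and 458 CPM. In repair against injury the log2 difference was -0.82 ± 0.47 SE (edgeR adjusted p = 0.386), and 4 of 5 repair libraries lay below every injury library while replicate 4 lay inside their range. Limma with library quality weights gave -1.12 with adjusted p = 0.0336. The muscle fibre markers differed between the same libraries: they summed to 257100 CPM in repair replicate 4 and to 45310 to 125900 CPM in the other repair libraries, against 203100 to 307000 CPM in injury replicates 1, 2 and 4. Injury replicate 3 departed from this order, with fibre markers at 67100 CPM beside a VEGFA level of 259.7 CPM, above that of 4 of 5 repair libraries. The part of fibre content in the VEGFA values was not tested. In gel against injury the VEGFA log2 difference was -0.43 ± 0.47 SE (edgeR adjusted p = 0.659). Long-term gel averaged 444 ± 134 CPM and repair 525.8 ± 142 CPM, against 603 ± 103 CPM in uninjured muscle (SD). Gel against uninjured gave -0.44 ± 0.20 SE (edgeR adjusted p = 0.347), and -0.27 without gel replicate 1.

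KDR, the main signalling receptor for VEGFA, was not called by edgeR in any comparison between groups. Set against the uninjured library of the same animal code it was lower in 5 of 5 gel libraries, as held for 4.52% of all genes, with a mean log2 difference of -0.23 (SD 0.13). In long-term gel libraries KDR stood at 15.8, 22.3, 31.7, 17.7 and 23.8 CPM and in long-term repair libraries 30.5, 24.7, 33.3, 25.3 and 19.3 CPM, against a lowest, median and highest value of 17.7, 24.9 and 37.3 CPM in uninjured libraries. At the short term gel libraries held 26.6, 15.2, 17.5, 25.9 and 23.9 CPM and repair libraries 17.7, 19, 18.4, 22.6 and 24.2 CPM, against 18.5, 15.9, 32.4 and 18.3 CPM in injury-only libraries. All 6 groups overlapped, and no neighbours in the order of the 6 mean levels differed by more than the larger SD of the pair. The fitted log2 differences between the terms were 0.38 ± 0.21 SE in repair muscle (edgeR adjusted p = 0.141) and 0.029 ± 0.22 SE in gel muscle (adjusted p = 0.919).

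FLT1, the VEGFA-binding receptor that limits signalling, rose 2.93-fold between the terms in gel muscle, the largest difference of the 10 genes there, and 1.92-fold in repair muscle. Long-term gel libraries held 28.7, 39.5, 62.8, 53.5 and 48.2 CPM, against 18.6, 9.75, 8.42, 22 and 20.6 CPM in short-term gel libraries. The groups did not overlap (log2 difference 1.55 ± 0.23 SE, edgeR adjusted p = 4.3e-06). In repair muscle the long-term libraries held 39.96, 49.8, 46, 51 and 43.5 CPM, against 26.2, 20.4, 16.2, 35.7 and 21.7 CPM in short-term repair libraries. These did not overlap either (log2 difference 0.94 ± 0.23 SE, edgeR adjusted p = 0.00155), as held for 11.2% of all genes in gel muscle and 11.3% in repair muscle in the upward direction. With library totals as the only scaling the gel difference was 1.24 (edgeR adjusted p = 0.000783) and the repair difference 0.63 (adjusted p = 0.0616).

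Within the short term, FLT1 was lowest in gel muscle. The 4 injury-only libraries held 28.2, 25.7, 38.9 and 24.6 CPM, above all 5 gel libraries. The groups did not overlap, as held for 3.33% of all genes in that direction, while the difference did not pass (log2 difference -0.86 ± 0.30 SE, edgeR adjusted p = 0.189). Limma with library quality weights gave -0.74 with adjusted p = 0.0335. Against repair the gel value was -0.55 ± 0.29 SE (edgeR adjusted p = 0.528), with overlap. Long-term uninjured libraries held a lowest, median and highest FLT1 of 42.4, 59.2 and 73.6 CPM. Both operated groups averaged lower, 46.5 ± 13.1 CPM in gel and 46 ± 4.51 CPM in repair, against 58.7 ± 9.16 CPM in uninjured muscle (SD), with log2 differences of -0.34 ± 0.15 SE each (edgeR adjusted p = 0.344 for gel and 0.383 for repair).

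The ratio of FLT1 to KDR counts within a library is free of depth and scaling, and it was lower in short-term gel muscle than in either other short-term group. The log2 ratios were -0.52, -0.64, -1.05, -0.24 and -0.21 in gel libraries and 0.56, 0.10, -0.18, 0.66 and -0.15 in repair libraries, against 0.61, 0.70, 0.27 and 0.42 in injury-only libraries. All 5 gel libraries lay below every repair and injury library, and the nearest repair library lay at -0.18. Counts are not divided by gene length, so the ratio is compared between groups only and its sign has no meaning of its own. Gel minus repair was -0.73 and gel minus injury was -1.03. Each had p = 0.00794 by an exact 2-sided permutation test over libraries, the smallest p that 5 against 5, or 5 against 4, libraries allow, and 0.0238 after adjustment over the 6 comparisons of this ratio (0.0476 over the 12 of both ratios described). Leaving out 1 library put the adjusted p above 0.05 in 7 of 10 cases for gel minus repair (each gel library, and repair replicates 1 and 4) and in 9 of 9 for gel minus injury. The values themselves stayed at -0.82 to -0.60 for gel minus repair and -1.11 to -0.90 for gel minus injury. For gel minus injury the groups stayed fully apart in each of these cases, with adjusted p of 0.0536 to 0.119 (exact tests). Fewer libraries raise the smallest p the exact test allows there, so 9 of 9 does not measure how firm that difference is. Without the 3 libraries that stood apart the values were -0.61 and -1.11 (adjusted p = 0.0714 each, exact test). In gel against injury all 6 leukocyte and macrophage markers had values above 0, with a median log2 difference of 1.93 and 0 called by edgeR (3 at an unadjusted p under 0.05, beside 18.4% of all genes), and they summed to 29 to 164 CPM in gel and 8.69 to 52.4 CPM in injury-only libraries. In gel against repair 3 of the 6 had values above 0, with a median of 0.43 and sums of 8.92 to 141 CPM in repair libraries. Their part in the FLT1 values and in the ratio was not tested.

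The FLT1 to KDR ratio at the long term did not separate the treatments. The log2 ratios were 0.86, 0.82, 0.98, 1.60 and 1.02 in gel libraries and 0.39, 1.01, 0.47, 1.01 and 1.17 in repair libraries, against 0.70 to 2.05 with a median of 1.11 in uninjured libraries. Gel minus repair was 0.25, gel minus uninjured was -0.065 and repair minus uninjured was -0.31 (adjusted p = 0.314, 0.773 and 0.314, exact permutation tests). Gel minus repair was 0.97 higher at the long than at the short term on the log2 scale. An exact permutation of labels within each term, added after the values were seen, gave p = 0.00806 (0.0161 adjusted over both ratios). By the same test, leaving out 1 library at a time gave 0.84 to 1.07 with adjusted p of 0.00888 to 0.0387. Leaving out the 3 that stood apart gave 0.91 (adjusted p = 0.0267). The null of this test is no gel effect at either term, so a short-term effect alone can give a small p. It therefore cannot decide whether the gel effects differ between the terms. EdgeR's test of that difference gave 0.61 ± 0.32 SE for FLT1 (adjusted p = 0.43) and -0.35 ± 0.30 SE for KDR (adjusted p = 0.659). The gel group's own ratio was higher in every long-term library than in any short-term one.

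**Figure D2:**
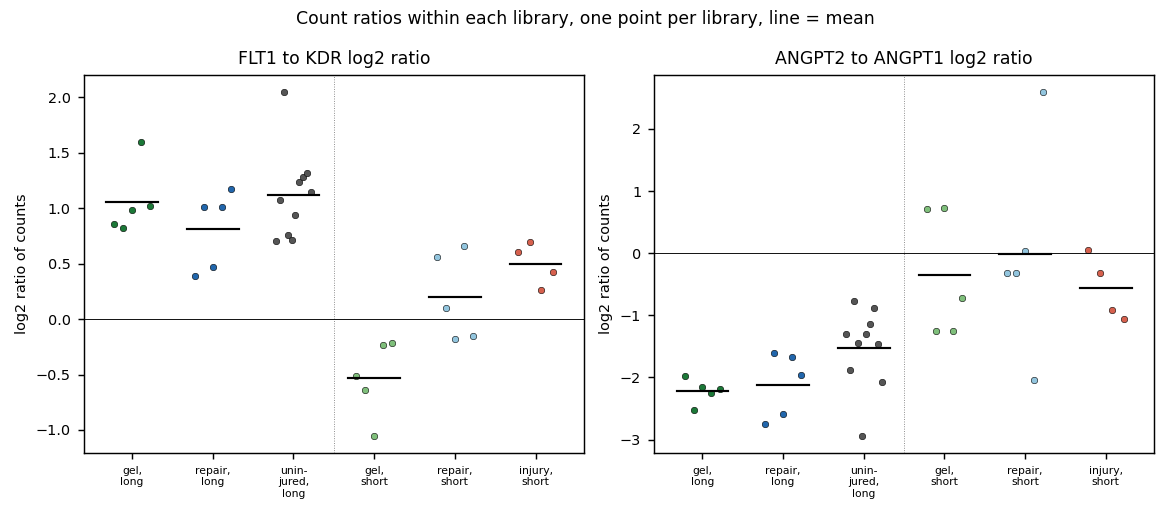
Log2 ratio of counts within each library (y axis) for FLT1 to KDR (left) and ANGPT2 to ANGPT1 (right) by treatment and term (x axis), with 1 point per library and a line at the group mean. On the left the 5 short-term gel points all lie below the other short-term points, and on the right all 20 long-term points lie at or below -0.77 while the short-term points spread from -2.03 to 2.60.

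ANGPT1, the activating ligand of TEK, rose 3.59-fold between the terms in repair muscle, the largest difference among the 10 genes, and 2.11-fold in gel muscle. Long-term repair libraries held 33.4, 12.2, 27.6, 17.5 and 21 CPM, against 8.31, 7.59, 4.23, 9.99 and 1.06 CPM in short-term repair libraries. They did not overlap (log2 difference 1.84 ± 0.43 SE, edgeR adjusted p = 0.000978), as held for 11.3% of all genes in that direction. In gel muscle the long-term libraries held 4.29, 18.1, 14.5, 12.8 and 16 CPM, against 4.23, 6.79, 3.10, 8.10 and 8.96 CPM at the short term. Of the long-term gel libraries 4 lay above the whole short-term group and replicate 1 lay inside it (log2 difference 1.08 ± 0.43 SE, edgeR adjusted p = 0.0363). Leaving out 1 gel library at a time gave 0.91 to 1.34, and the call was lost in 6 of the 10 fits, those without short-term gel replicates 1 or 3 or any of long-term gel replicates 2 to 5.

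At the long term, ANGPT1 was higher in repair muscle than in the other groups without passing the test across all genes. Uninjured libraries held a lowest, median and highest value of 6.95, 12.6 and 21.2 CPM. Of the 5 repair libraries 2 lay above the highest uninjured library and the other 3 within the uninjured range (log2 difference 0.89 ± 0.28 SE, edgeR adjusted p = 0.17). Gel against repair gave -0.78 ± 0.34 SE (edgeR adjusted p = 0.331) and -0.56 without gel replicate 1. Fibroblast markers were higher beside it: in repair against uninjured all 6 had values above 0 and 1, the matrix gene DPT, passed, with sums of 581 to 1503 CPM in repair and 283 to 831 CPM in uninjured libraries. Their part in the ANGPT1 value was not tested. Pericyte and smooth muscle markers summed to 630.4 to 893 CPM in repair and 652 to 939 CPM in uninjured libraries, and 0 of 10 passed edgeR (0 at an unadjusted p under 0.05).

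ANGPT2, the context-dependent antagonist of TEK, had 10 to 74 reads per long-term library, which limits its precision. In gel muscle its long-term level was lower, by 1.75-fold. The long-term gel libraries held 1.05, 3.12, 3.21, 2.66 and 3.47 CPM, against 6.97, 2.85, 5.15, 3.38 and 5.45 CPM in short-term gel libraries. The groups overlapped, since 2 short-term libraries, at 2.85 and 3.38 CPM, lay within the long-term range (log2 difference -0.81 ± 0.29 SE, edgeR adjusted p = 0.0228). The value was -0.57 without long-term gel replicate 1, whose 1.05 CPM came from 10 reads, and the call was lost without it and without short-term gel replicate 1. In repair muscle it was -0.10 ± 0.28 SE (edgeR adjusted p = 0.786).

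Gel and repair muscle did not overlap in ANGPT2 at the long term. Long-term repair libraries held 4.92, 3.99, 4.54, 5.46 and 5.35 CPM, all above the highest gel library at 3.47 CPM, as held for 0.388% of all genes in that direction. The difference did not pass (log2 difference -0.85 ± 0.26 SE, edgeR adjusted p = 0.302, unadjusted p = 0.00368) in a comparison where 0% of genes did. Without gel replicate 1 the log2 value was -0.65. Uninjured libraries ran from 2.63 to 5.54 CPM, a range that held all 5 repair and 4 of 5 gel libraries, and gel against uninjured gave -0.60 ± 0.23 SE (edgeR adjusted p = 0.325).

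The ANGPT2 to ANGPT1 ratio within a library was low throughout the long term and scattered at the short term. Its mean log2 value was -2.22 ± 0.19 in gel and -2.12 ± 0.53 in repair muscle, against -1.52 ± 0.64 in uninjured muscle (SD, n = 5, 5 and 10). Short-term means were -0.35 ± 1.01 in gel and -0.0054 ± 1.66 in repair muscle, against -0.56 ± 0.52 with injury only (SD, n = 5, 5 and 4). None of the 6 comparisons within a term passed, the smallest adjusted p being 0.216 for gel minus uninjured at -0.70 (exact permutation test, unadjusted p = 0.036). Uninjured replicate 5, with the lowest ratio at -2.94, weighed on that comparison: without it gel minus uninjured was -0.86 (adjusted p = 0.021) and repair minus uninjured was -0.75 (adjusted p = 0.0435, exact tests). That library was not among the 3 that stood apart. Of the 15 fits with 1 library left out, only 1 passed in each of these comparisons. In the others the adjusted p reached 0.333 for gel and 0.623 for repair minus uninjured (exact tests). Short-term repair replicate 5, with 1.06 CPM of ANGPT1 and a log2 ratio of 2.60, was the highest of all, and its fibroblast markers summed to 32130 CPM.

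TEK, the angiopoietin receptor, rose between the terms 1.88-fold in repair and 2.13-fold in gel muscle. Long-term repair libraries held 32, 41.9, 34.6, 44.4 and 38 CPM, against 23.9, 23.2, 12.9, 20.8 and 20.6 CPM in short-term repair libraries. For gel, the long-term libraries held 27.4, 30.9, 45.1, 36.4 and 44.4 CPM, against 19.4, 10.6, 12.5, 19.7 and 24.2 CPM in short-term gel libraries. Neither pair overlapped. The test gave 0.91 ± 0.21 SE in repair (edgeR adjusted p = 9e-04) and 1.09 ± 0.21 SE in gel muscle (adjusted p = 0.000126). Gel against repair differed between the terms by 0.18 ± 0.30 SE (adjusted p = 0.855). With library totals as the only scaling, the repair value was 0.54 (edgeR adjusted p = 0.134) and the gel value 0.78 (adjusted p = 0.033).

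Short-term injury-only libraries held 24.3, 22.6, 45.1 and 24.8 CPM of TEK. Of the 5 gel libraries 4 lay below all of these and 1, replicate 5, lay inside their range (log2 difference -0.73 ± 0.28 SE, edgeR adjusted p = 0.212). Repair against injury gave -0.54 ± 0.28 SE (edgeR adjusted p = 0.368). Without injury replicate 3 the values were -0.49 for gel and -0.29 for repair. In the long term TEK ran from 27.4 to 45.1 CPM in gel and 32 to 44.4 CPM in repair, against 30.8 to 50.5 CPM in uninjured muscle, with log2 differences of -0.15 to -0.072 among the 3 groups.

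TIE1, the partner receptor of TEK, passed in neither treatment. In repair muscle the log2 difference between the terms was -0.33 ± 0.19 SE (edgeR adjusted p = 0.154) and in gel muscle -0.26 ± 0.19 SE (adjusted p = 0.26). Long-term libraries were tightly grouped, at 15.7 to 21.8 CPM in gel and 14.7 to 18.6 CPM in repair, against 14.2 to 20.6 CPM in uninjured muscle. At the short term they spread over 13.2 to 30.2 CPM in gel and 14.7 to 26.9 CPM in repair, against 13.2 to 27.6 CPM with injury only. Among the alternatives run, the repair difference passed without the 3 libraries that stood apart (-0.41, edgeR adjusted p = 0.0372) and in no other.

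PECAM1, an adhesion molecule of endothelial junctions that platelets and leukocytes also carry, had a mean of 71.6 ± 3.68 CPM in long-term and 67.9 ± 25.2 CPM in short-term gel muscle (SD). Long-term gel libraries held 70.2, 70.9, 76, 74.3 and 66.6 CPM, against 111, 46, 56.5, 67.7 and 58.3 CPM in short-term gel libraries (log2 difference 0.077 ± 0.21 SE, edgeR adjusted p = 0.783). For repair, the long-term libraries held 77, 62.1, 87.1, 75.2 and 77 CPM, against 95.8, 77, 58.8, 50.5 and 109 CPM in short-term repair libraries (-0.050 ± 0.21 SE, adjusted p = 0.865). The libraries were more scattered at the short term in both, and every comparison of these groups overlapped. The SD was 8.93 CPM in long-term and 24.6 CPM in short-term repair muscle. Injury-only libraries held 46.9, 50.6, 99.53 and 45.8 CPM, and without the 3 libraries that stood apart repair against injury became 0.85 (edgeR adjusted p = 0.039). That is the fit whose count of all genes passing is given with VWF.

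CDH5, the endothelial cadherin, rose 1.49-fold between the terms in repair muscle. Long-term repair libraries held 80.2, 73.7, 93.5, 86.8 and 85.7 CPM, all above the short-term repair libraries with 59.4, 61.3, 51.7, 42.7 and 66.5 CPM (log2 difference 0.58 ± 0.16 SE, edgeR adjusted p = 0.00362). Such separation upward held for 11.3% of all genes. Long-term gel libraries held 100.8, 79.1, 78.1, 78.9 and 72.4 CPM, against 80.8, 60.6, 64.8, 73.6 and 55.5 CPM at the short term, with overlap (log2 difference 0.29 ± 0.16 SE, edgeR adjusted p = 0.126). With library totals as the only scaling the repair value was 0.20 (edgeR adjusted p = 0.563), where the median of all genes moved by -0.32. Injury-only libraries held 51.7, 42.5, 88.7 and 44.4 CPM, and 3 of the 4 lay below all gel libraries. Gel against injury was 0.26 ± 0.23 SE (edgeR adjusted p = 0.562), 0.54 by limma with library quality weights (adjusted p = 0.0179) and 0.58 without the libraries that stood apart (edgeR adjusted p = 0.0266). The share of all genes passing in the limma fit and in the fit without those libraries is not given here. The 3 long-term comparisons gave log2 differences of -0.063 to 0.015.

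VWF, the stored clotting protein of endothelium, was 2.11-fold lower at the long than at the short term in repair muscle. It stood at 139, 132, 97.3, 118 and 105 CPM in long-term repair libraries, against 413, 225, 149, 119 and 342 CPM in short-term repair libraries. Replicates 1, 2 and 5 of the short-term group were the high ones, and replicates 3 and 4 lay close to or within the long-term range (log2 difference -1.08 ± 0.31 SE, edgeR adjusted p = 0.0049). In gel muscle the value was 0.20 ± 0.30 SE (edgeR adjusted p = 0.591), with 238, 109, 148, 133 and 104 CPM at the long and 241, 65.4, 91.3, 111 and 127 CPM at the short term. Gel against repair at the short term was -0.94 ± 0.42 SE (edgeR adjusted p = 0.472), and the gel effect differed between the terms by 1.28 ± 0.43 SE (unadjusted p = 0.00524, edgeR adjusted p = 0.244). In that test of the difference edgeR and DESeq2 each called 0 of 10 genes, with 1 in edgeR at an unadjusted p under 0.05, beside 0.0155% of all genes called and 12.7% at the unadjusted threshold.

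For repair against injury at the short term the VWF result depended on which libraries were used. Injury-only libraries held 104, 102, 236 and 99.59 CPM, with replicate 3 the high one. The log2 difference was 0.87 ± 0.45 SE (edgeR adjusted p = 0.368), 1.05 by limma with library quality weights (adjusted p = 0.0307) and 1.48 without the 3 libraries that stood apart (edgeR adjusted p = 0.022), a fit in which 4382 of 13526 genes passed in all. VWF is also a platelet protein: of the platelet markers PPBP was at 0 in 29 of 34 libraries, GP9 in 21, and GP1BA was under 1 CPM in all 34, while ITGA2B, the platelet integrin, ran from 6.44 to 29.8 CPM and was at 0 in none. The 4 platelet markers in the files summed to 6.75 to 19.3 CPM in short-term repair and 6.47 to 13.7 CPM in injury-only libraries. Their part in the VWF values was not tested. Between the terms in gel muscle ITGA2B rose, by 0.67 ± 0.25 SE (edgeR adjusted p = 0.0276).

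**Figure D3:**
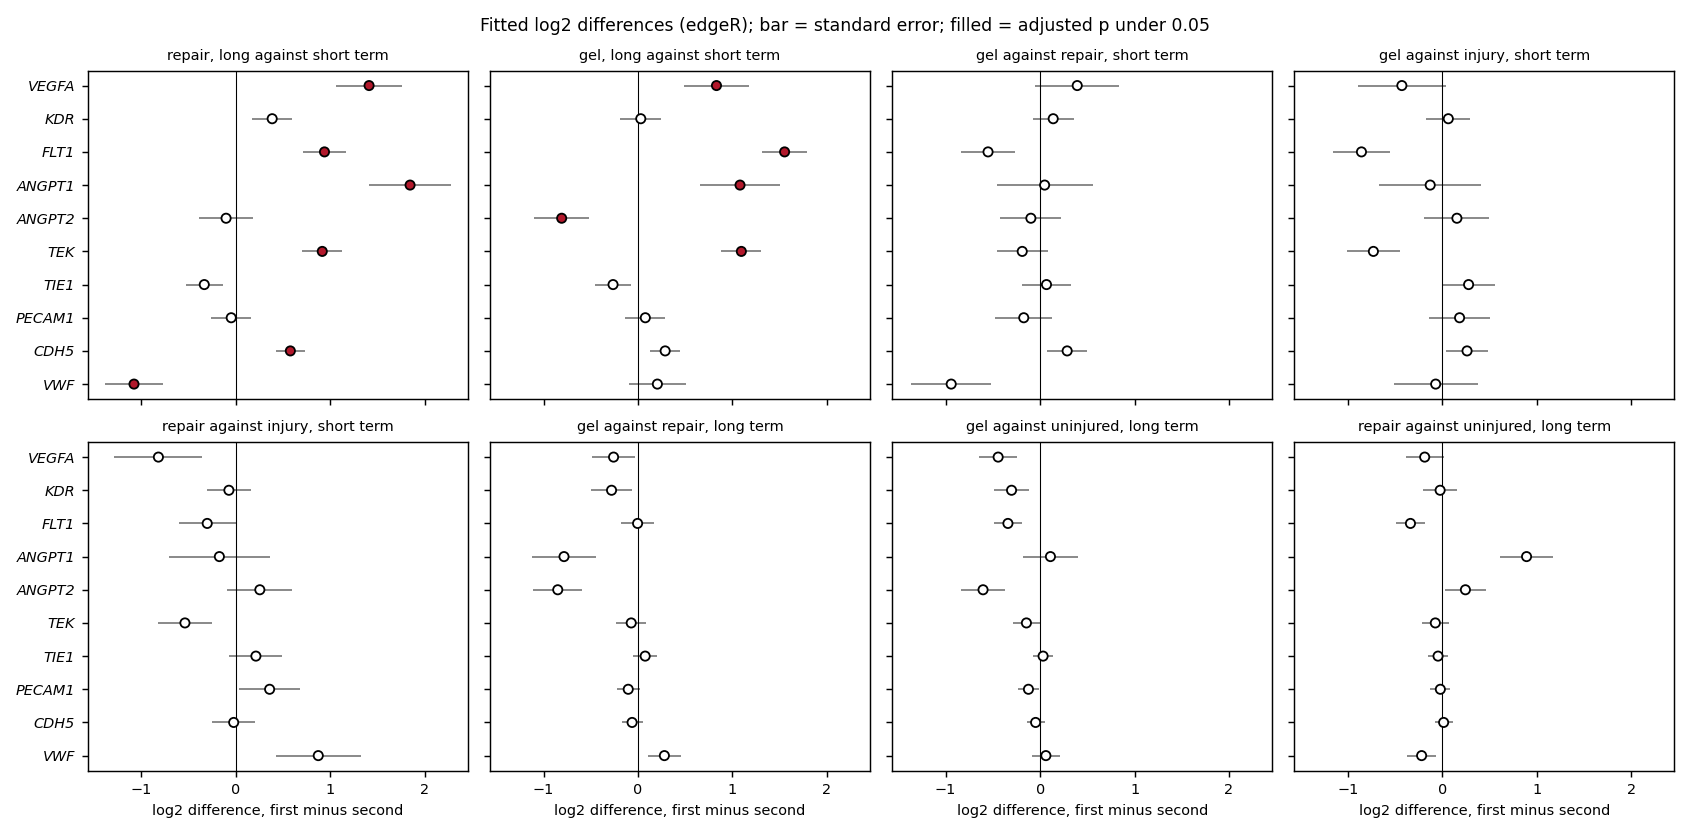
Fitted log2 difference, first group minus second (x axis), of each gene (y axis) in the 8 comparisons of groups, with bars of 1 standard error and filled points at an edgeR adjusted p under 0.05. The 11 filled points are all in the first 2 panels, long against short term, where VEGFA, FLT1, ANGPT1 and TEK lie above 0 in both.

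The animal codes in the deposited files' names, which the labels do not explain, link each long-term operated library to 1 uninjured library. Set against the uninjured library of the same code, KDR, FLT1, TEK and PECAM1 were lower in 5 of 5 gel animals, as held for 4.52% of all genes tested, and in repair muscle 0 of the 10 genes were lower in all 5, as held for 6.74%. In KDR the gel libraries held 15.8, 22.3, 31.7, 17.7 and 23.8 CPM, against 17.7, 25.1, 36.6, 24.3 and 26.8 CPM in the same animals' uninjured muscle in the same order. Each pair lay close together although animals ranged widely, and the log2 differences were -0.17, -0.17, -0.20, -0.46 and -0.17. PECAM1 gave -0.21, -0.18, -0.18, -0.35 and -0.04, and FLT1 gave -1.36, -0.11, -0.16, -0.14 and -0.30, the first of these far from the rest. TEK gave -0.76, -0.34, -0.079, -0.22 and -0.18 in gel animals and -0.0087, 0.30, 0.17, -0.0024 and -0.0093 in repair animals.

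The fit with the animal code as a block called 0 of 10 genes in each long-term comparison with edgeR, and the signs themselves were not tested. ANGPT1 was higher than in the same animal's uninjured muscle in 4 of 5 gel animals, with log2 differences of -1.09, 1.31, 0.61, 0.88 and 0.12, and in 4 of 5 repair animals, with 1.35, -0.23, 0.38, 0.52 and 0.60. In ANGPT2, gel animals gave -2.27, 0.24, -0.25, -0.48 and -0.0018 and repair animals -0.089, 0.046, 0.71, -0.02 and 0.11. Gel replicate 1 was the far value for VEGFA, FLT1, ANGPT1 and ANGPT2.

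**Figure D4:**
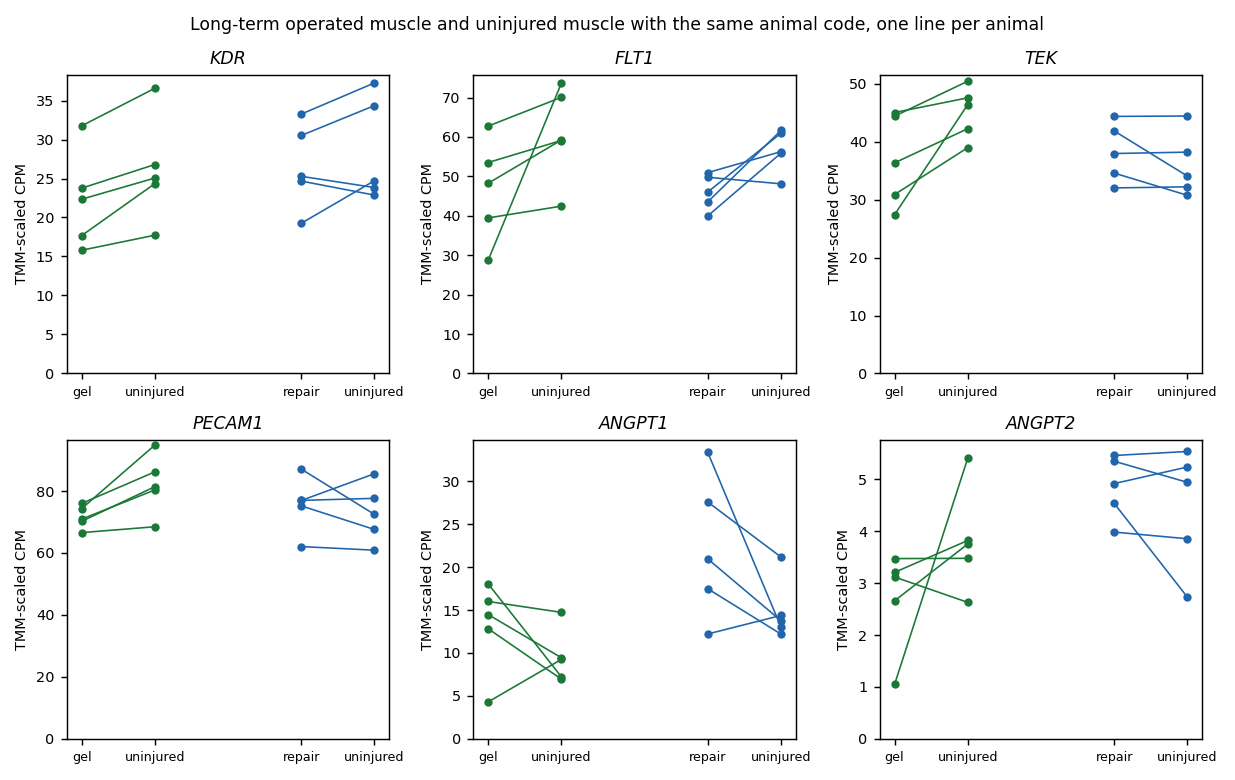
TMM-scaled CPM (y axis, from 0) of 6 genes in long-term gel (green) and repair (blue) libraries, each joined by a line to the uninjured library with the same animal code (x axis), with 5 animals per treatment. All green lines of KDR, FLT1, TEK and PECAM1 run from a lower gel value to a higher uninjured value, and the blue lines of TEK and PECAM1 run both ways.

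Other endothelial genes also moved in both directions between the terms. Of 24 further endothelial identity genes 19 were in the files and tested. Between the terms 6 rose and 4 fell in repair muscle, with a median log2 difference of 0.084 beside -0.11 over all genes, and 6 rose and 3 fell in gel muscle, with a median of 0.15 beside -0.086. The shares of all genes called in either direction were 46.2% in repair and 48.3% in gel muscle, with 18.2% and 21.8% called higher. In repair muscle the sphingosine receptor S1PR1 (0.81), the transcription factor SOX7 (0.95) and the phosphatase PTPRB (0.88), a known partner of TEK and CDH5, rose, and the vesicle diaphragm protein PLVAP (-2.10), the adhesion molecule ICAM2 (-0.90) and ECSCR (-0.82) fell. In gel muscle SOX17 (1.17), PTPRB (0.81) and SOX7 (0.78) rose, and ICAM2 (-0.84), TAL1 (-0.74) and PLVAP (-1.11) fell. Within a term edgeR called 0 of the 19 in all 6 comparisons, with 0 to 2 at an unadjusted p under 0.05.

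Few other genes of the VEGF family passed between the terms. Of 6 genes in the files edgeR called 0 between the terms in repair muscle (2 at an unadjusted p under 0.05), beside 46.2% of all genes. In gel muscle 1 rose, the co-receptor NRP1 (0.46 ± 0.17 SE, edgeR adjusted p = 0.0291), beside 48.3% of all genes called. VEGFC gave -0.22 in repair and -0.31 in gel muscle, PGF -0.77 and -0.11, and the lymphatic receptor FLT4 -0.33 and 0.13. The endothelial marker EMCN gave 0.32 and 0.15, and the TGF-beta co-receptor ENG gave 0.049 in repair and rose in gel muscle (log2 difference 0.74 ± 0.26 SE, edgeR adjusted p = 0.0214). Of 7 tip cell and Notch genes HEY2 rose (1.00) and HEY1 fell (-0.71) in repair, and HEY2 (1.04) and the ligand JAG1 (0.56) rose in gel muscle, beside the same shares of all genes called. The tip cell ligand DLL4 averaged 11.3 ± 2.82 CPM in long-term gel and 6.93 ± 1.40 CPM in long-term repair muscle, against 10.2 ± 2.46 CPM in uninjured muscle (SD). Gel against repair did not pass (log2 difference 0.69 ± 0.22 SE, edgeR adjusted p = 0.302). Neither did repair against uninjured (-0.54 ± 0.19 SE, adjusted p = 0.229) or gel against uninjured (0.15 ± 0.18 SE, adjusted p = 0.702).

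Genes that answer low oxygen, among which VEGFA is a classical target, were mostly called higher or not called between the terms. Of 10 hypoxia response genes 5 rose and 1 fell between the terms in repair muscle and 5 rose and 0 fell in gel muscle, with medians of 0.59 and 0.89. Of all genes 18.2% rose and 27.9% fell in repair muscle, and 21.8% rose and 26.5% fell in gel muscle. EPAS1 (HIF-2 alpha), the hypoxia factor of endothelium, rose in both, by 0.90 ± 0.16 SE in repair and 1.15 ± 0.16 SE in gel muscle (edgeR adjusted p = 5.04e-05 and 1.2e-06). Its sister HIF1A fell in repair muscle (-1.88, edgeR adjusted p = 0.002), though the groups overlapped. Short-term repair libraries ran from 12 to 234 CPM of HIF1A and long-term repair libraries from 23.15 to 39.3 CPM. The carbonic anhydrase CA9 rose by 2.25 in repair and 3.49 in gel muscle, the metabolic kinase PDK1 by 1.18 in repair and the prolyl hydroxylase EGLN3 by 2.38 in gel muscle.

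Inhibitors of angiogenesis went the other way between the terms: of 6 genes, 4 fell and 0 rose in each treatment, where 27.9% of all genes fell in repair and 26.5% in gel muscle. Those named by p were SERPINF1 (-1.29), THBS2 (-2.81) and COL18A1 (-1.90) in repair, and COL18A1 (-2.19), SERPINF1 (-0.73) and THBS1 (-1.95) in gel muscle. In repair muscle THBS2 overlapped between the terms, at 27.7 ± 21.3 CPM at the long and 195 ± 230 CPM at the short term (SD). Beside them, 5 of 6 fibroblast markers fell in each treatment, with sums of 581 to 1503 CPM at the long and 694 to 32130 CPM at the short term in repair and 442 to 712 and 1421 to 3993 CPM in gel muscle. Leukocyte markers fell too, 4 of 6 in repair and 6 of 6 in gel muscle, while fibre markers summed to 122100 to 194000 CPM at the long and 45310 to 257100 CPM at the short term in repair and 162700 to 237700 and 91910 to 192100 CPM in gel muscle. The part of these cell types in the 10 genes' differences was not tested, and in bulk RNA fewer cells of a type and less RNA per cell cannot be told apart. Within the long term the inhibitors THBS1 (1.75 ± 0.41 SE, edgeR adjusted p = 0.0374) and THBS2 (1.16 ± 0.27 SE, adjusted p = 0.0424) and the lymphatic and stromal marker PDPN (2.05 ± 0.47 SE, adjusted p = 0.0352) rose in repair against uninjured muscle, where 0 of the 10 endothelial and angiogenesis genes did. Of all genes 1.01% were called there. The groups overlapped for all 3, and the repair libraries scattered widely. THBS1 averaged 43.6 ± 39.9 CPM in repair against 13.1 ± 5.85 CPM in uninjured libraries (SD). THBS2 averaged 27.7 ± 21.3 against 12.6 ± 3.49 CPM, and PDPN 5.28 ± 5.29 against 1.30 ± 0.56 CPM.

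Mural cell markers went both ways between the terms. Of 10 pericyte and smooth muscle markers 4 rose and 4 fell in repair, and 3 rose and 2 fell in gel muscle. Over all genes the shares that rose and fell were 18.2% and 27.9% in repair and 21.8% and 26.5% in gel muscle. NOTCH3 (0.84 in repair and 0.80 in gel), the smooth muscle myosin MYH11 (1.03 and 1.46) and the channel subunit ABCC9 (0.73 and 0.54) rose in both, and the actin-binding TAGLN (-4.70 and -2.33) and ACTA2 (-2.48 and -3.19), which activated fibroblasts also express, fell in both. ACTA2 overlapped between the terms in both treatments. It averaged 43.35 ± 8.44 CPM at the long and 242 ± 417 CPM at the short term in repair muscle (SD). In gel muscle these were 51.65 ± 16.1 and 472 ± 765 CPM. RGS5, a pericyte marker, rose in repair (log2 difference 0.99 ± 0.34 SE, edgeR adjusted p = 0.0197) and gave 0.70 in gel muscle (adjusted p = 0.092). The receptor PDGFRB fell in repair muscle (-0.91, edgeR adjusted p = 0.0154) and gave -0.71 in gel muscle (adjusted p = 0.0529). LYVE1, of lymphatic endothelium and some macrophages, gave -0.82 in repair and -0.48 in gel muscle and passed in neither. Of the 5 lymphatic markers, LYVE1 included, 1 rose and 3 fell in repair muscle, and 0 rose and 1 fell in gel muscle. In repair muscle PROX1 rose (1.54) and RELN (-1.98), PDPN (-1.53) and CCL21 (-1.43) fell. In gel muscle PDPN fell (-2.53). Which cells the RNA of these mural and lymphatic markers, ABCC9 and PROX1 among them, came from was not tested.

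Across all 34 libraries, the gene whose centred log2 CPM lay nearest to the mean profile of the 7 endothelial members (all but VEGFA, ANGPT1 and ANGPT2) was the junction protein F11R, with a root-mean-square difference of 0.179. NRP1 (0.1995), SHANK3 (0.213), DENND5A (0.214) and JAG1 (0.218) followed, beside a median of 0.555 over 9879 candidate genes. ANGPT1 was nearest to SEPP1 (0.540), TMEM65 (0.541) and AKAP6 (0.545), ANGPT2 to ASAH1 (0.286), PTBP3 (0.313) and SLC39A6 (0.316), and VEGFA to KLF9 (0.360), PTGR2 (0.367) and LYRM5 (0.371). The distances of ANGPT1 are closer to the median of their own candidates, 1.05, than is the case for the endothelial profile. These likenesses are a description over libraries that share term and depth.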

How the data were processed

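Bulk RNA of 34 muscle samples was extracted and made into libraries by a commercial firm (per the labels' protocols). The values deposited are raw counts of reads per gene, 1 table per library. The submitters' processing notes name STAR, edgeR and OryCun2.0. No version, counter, annotation or strand setting is given in the sources used here, and reads of overlapping or near-identical genes may be split or shared.

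Of 18210 entries, 26 with date-like names were dropped (at most 0.163% of a library) and 7 repeated symbols summed, which left 18176 genes. Of 3500 LOC identifiers 578 received a symbol through RefSeq's table for the assembly mOryCun1.1, from which no coordinates were taken. Among 91 pairs of libraries within groups 0 were identical.

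Counts were fitted in R 4.3.3 with edgeR 4.0.16 (TMM, filtering by expression, robust quasi-likelihood test, 2-sided): 14 short-term libraries (13526 genes), 20 long-term libraries (11605 genes) and all 34 (12935 genes) between terms. Adjusted p-values are Benjamini-Hochberg values over all genes tested. Ratios are log2 of counts plus 0.5. Alternatives used DESeq2 1.42.0, limma 3.58.1, other scalings, filters, blocks and libraries left out. Groups came from the titles. The members, gene lists, named genes (the members, a panel of 16 of which CLDN5, VEGFB and APLN are not used here, up to 3 called genes per list and direction, and nearest patterns) and the libraries set apart were chosen with earlier results of these data known. In no comparison did all pairs by title number correlate above 0.1. Pairs by animal code, taken from file names, gave r above 0.1 in 4 of 5 repair and 2 of 5 gel pairs, so these correlations cannot tell which libraries pair. By the codes, title numbers match animals only in long-term repair and uninjured replicates 1 and 2.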

Additional observations from a re-analysis of the deposited data

Results flagged for a closer look

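Of 72 groups of libraries examined (10 genes and 2 ratios in 6 groups), 11 held a library far from the rest, where chance gives about 1 in 20. Short-term injury replicate 3 was the high one for 6 genes: KDR 32.4 CPM, ANGPT2 6.42 CPM, TEK 45.1 CPM, TIE1 27.6 CPM, PECAM1 99.5 CPM and VWF 235.7 CPM. Long-term gel replicate 1 was lowest of its group for VEGFA, at 212 CPM, and highest for CDH5, at 100.8 CPM. Short-term repair replicate 4 was highest for VEGFA, at 377 CPM. The log2 FLT1 to KDR ratio was high in long-term gel replicate 4, at 1.60, and in uninjured replicate 3, at 2.05, which carries the animal code of gel replicate 1.

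The gel effect on the FLT1 to KDR ratio was also flagged, with values 0.974 apart between the terms on the log2 scale (exact permutation within terms, p = 0.00806, 0.0161 after adjustment over both ratios). The gel effect was 0.245 at the long and -0.729 at the short term. The test was added after these values had been seen, so it is not independent support for the difference. Its null is no gel effect at either term, so it cannot decide whether the effects differ between the terms.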

How the results depend on the processing

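The 6 calls in repair muscle between the terms held without each library in turn and under DESeq2. The gel count of 5 ran from 2 to 5 when 1 library was left out: 2 without short-term gel replicate 1, 3 without short-term gel replicate 3 or any of long-term gel replicates 2 to 5, and 4 without short-term gel replicate 2 or long-term gel replicate 1. FLT1 and TEK kept their calls in all of these, while VEGFA, ANGPT1 and ANGPT2 lost theirs in 7, 6 and 2 of 10. With only the gel groups fitted the count was 3. Library totals as the only scaling gave 3 each for repair and gel between the terms, and moved the median of all genes by -0.32 and -0.34. It moved it by 0.40 in repair minus injury, 0.22 in gel minus injury and -0.18 in gel minus repair at the short term, and by -0.14 in gel minus repair and -0.11 in gel minus uninjured at the long term. Within a term the count of 0 became 2 for repair minus injury and 2 for gel minus injury under limma with library quality weights, and 2 and 1 without the libraries that stood apart. The alternative counts in this paragraph are given without the share of all genes called in the same fits, so they are not set against a background. ANGPT2 had 10 counts in long-term gel replicate 1, which limits the precision of its value there.

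The FLT1 to KDR ratio kept its direction for gel minus repair (-0.61 without the libraries that stood apart, -0.82 to -0.60 with 1 left out) and for gel minus injury (-1.11, and -1.11 to -0.90) at the short term, past 0.05 in 3 of 10 and 0 of 9 of the fits with 1 left out. For gel minus injury the smaller groups raise the smallest p the exact test allows, so 0 of 9 does not measure how firm the difference is. Gel minus uninjured at the long term ran from -0.20 to 0.038. With 1 library left out, the ANGPT2 to ANGPT1 ratio ran from -0.86 to 0.30 for gel minus repair, -0.096 to 1.06 for repair minus injury and -0.064 to 0.43 for gel minus injury at the short term. At the long term it ran from -0.26 to 0.024 for gel minus repair, -0.75 to -0.44 for repair minus uninjured and -0.86 to -0.62 for gel minus uninjured, and its gel effect differed between terms by -0.41 to 0.75.

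By animal code, title numbers pair no short-term libraries, and at the long term only repair and uninjured replicates 1 and 2. With title numbers as a block the FLT1 to KDR ratio was -0.73 for gel minus repair and -1.11 for gel minus injury (adjusted p = 0.188 and 0.25, exact sign-flip tests). With 5 and 4 pairs a sign-flip test cannot give a p under 0.05 whatever the values, so it could not decide here. The ANGPT2 to ANGPT1 ratio was -0.096 for repair minus injury, and ANGPT1 in gel muscle between the terms was 1.08 (edgeR adjusted p = 0.0755). The replicate block by title number gave CDH5 0.014 in repair minus injury, short term, TEK 0.093 and PECAM1 0.0404 in repair minus uninjured, long term, TEK 0.0017 in gel minus uninjured, long term. The animal-code block on 20 libraries gave TIE1 -0.0603 in gel minus repair, long term, TEK 0.10, TIE1 0.028 and PECAM1 0.072 in repair minus uninjured, long term, TIE1 -0.032 and VWF -0.055 in gel minus uninjured, long term. The animal-code block on own-animal libraries gave TEK 0.11, TIE1 0.029 and PECAM1 0.073 in repair minus uninjured, long term, TIE1 -0.032 and VWF -0.055 in gel minus uninjured, long term. The animal-code blocks, of which that on 20 libraries was chosen after seeing the data, called 0 of the 10 genes in the long-term comparisons with edgeR.

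The other changes of direction concern values that passed in no fit, and their cause was not tested. Library totals as the only scaling gave KDR -0.052, ANGPT1 -0.17 and TIE1 -0.17 in gel minus repair, short term, KDR 0.16 and CDH5 0.26 in repair minus injury, short term, TIE1 -0.081 in gel minus repair, long term, KDR 0.0203 and PECAM1 0.0083 in repair minus uninjured, long term, TIE1 -0.10 and VWF -0.092 in gel minus uninjured, long term, KDR -0.30, PECAM1 -0.29, CDH5 -0.081 and VWF -0.21 in gel, long minus short. Limma with library quality weights gave ANGPT1 -0.0022 in gel minus repair, short term, KDR 0.10, ANGPT1 0.25 and CDH5 0.28 in repair minus injury, short term, ANGPT1 0.25 and VWF 0.28 in gel minus injury, short term, FLT1 0.057 in gel minus repair, long term, TIE1 -0.0059 and VWF -0.17 in gel minus uninjured, long term, PECAM1 0.034 in repair, long minus short, TIE1 -0.029 in gel effect, long minus short term. Leaving out the 3 libraries that stood apart gave TIE1 -0.015 in gel minus repair, short term, KDR 0.19, ANGPT1 0.034 and CDH5 0.38 in repair minus injury, short term, ANGPT1 0.30 and VWF 0.36 in gel minus injury, short term, FLT1 0.13 and TEK 0.024 in gel minus repair, long term, TIE1 -0.0501 and VWF -0.18 in gel minus uninjured, long term, VWF -0.0403 in gel, long minus short. DESeq2 gave FLT1 0.00899 in gel minus repair, long term. DESeq2 size factors gave FLT1 0.0084 in gel minus repair, long term. No filter on low counts gave FLT1 0.0041 in gel minus repair, long term. Fitting only the groups compared gave CDH5 -0.0055 in repair minus uninjured, long term.

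With 1 library left out, these also changed direction or, for VEGFA, ANGPT1 and ANGPT2 in gel muscle, side of the threshold. In gel minus repair, short term the ranges were -0.24 to 0.26 for ANGPT1, -0.28 to 0.042 for ANGPT2 and -0.091 to 0.20 for TIE1. In repair minus injury, short term the ranges were -0.19 to 0.16 for KDR, -0.39 to 0.21 for ANGPT1 and -0.14 to 0.23 for CDH5. In gel minus injury, short term the ranges were -0.055 to 0.29 for KDR, -0.34 to 0.24 for ANGPT1, -0.059 to 0.35 for ANGPT2, -0.10 to 0.48 for PECAM1 and -0.46 to 0.29 for VWF. In gel minus repair, long term the ranges were -0.14 to 0.13 for FLT1 and -0.16 to 0.024 for TEK. In repair minus uninjured, long term the ranges were -0.12 to 0.077 for KDR, -0.08 to 0.047 for PECAM1 and -0.0305 to 0.062 for CDH5. In gel minus uninjured, long term the ranges were -0.038 to 0.33 for ANGPT1, -0.0501 to 0.071 for TIE1 and -0.18 to 0.16 for VWF. In repair, long minus short the ranges were -0.28 to 0.0081 for ANGPT2 and -0.17 to 0.11 for PECAM1. In gel effect, long minus short term the ranges were -0.0598 to 0.23 for TIE1 and -0.033 to 0.38 for PECAM1. In gel, long minus short the ranges were 0.61 to 1.21 for VEGFA, -0.13 to 0.17 for KDR, 0.91 to 1.34 for ANGPT1, -0.94 to -0.57 for ANGPT2 and -0.034 to 0.33 for PECAM1.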
